A study of Mus musculus with 2 samples.

Results

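Described here is the DNA methylation of 45 genes for the extracellular matrix that fibroblasts secrete, in mouse embryonic fibroblasts (MEFs) with and without oestrogen receptor β (ERβ, gene Esr2). The genes were chosen by name, as collagens, elastic fibre proteins, lysyl oxidases, adhesive glycoproteins and proteoglycans. For each gene, covered positions were collected in the gene body and in the 2000 bp upstream of its start, here called the promoter. Of the 45 genes, 42 held a covered position, out of 17309 protein-coding genes that did so in the whole dataset. No position was covered at Postn, Dcn and Lum, so nothing can be said here of periostin, decorin or lumican. Col3a1 had 3 positions, all in its body.

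The samples were wildtype (wt) MEFs and MEFs with the genotype ESR2 -/- (βerko), both of strain C57BL/6 and grown in the same medium, without a treatment in the labels. Each was 1 library for reduced representation bisulfite sequencing (RRBS), made from pooled DNA of 3 batches. There were no replicates, so each comparison is between 2 libraries and the spread between cultures or embryos is unknown. In RRBS the DNA is cut at CCGG by MspI, which limits the data to CpGs near these sites, and bisulfite leaves methylated cytosines to be read as cytosine. Depth was known only at differentially methylated positions (DMPs), for which read numbers were deposited, and is unknown elsewhere. The label embryonic fibroblasts could not be checked, since the files hold no expression. Among 21 promoters of genes that mark fibroblasts or other cell types, 5 had 5 or more positions, and none of these belonged to endothelial, blood or pluripotent cells. Of the fibroblast markers, the promoter of Twist1 had mean methylation of 61.5 % in wt and 44.8 % in βerko MEFs, that of Prrx1 89.8 and 60.2 %, and that of Fap 96.2 and 95.3 %. Of the epithelial markers, Cdh1 had 28.7 and 10.2 % and Krt18 62.7 and 43.7 %. Whether a different cell composition played a part in the results was not tested.

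The extracellular matrix is built of fibrillar collagens, which give tensile strength, of microfibrils and elastin, which give recoil, of basement membrane networks, and of glycoproteins and proteoglycans that link cells to these fibres. Fibroblasts are its main source in connective tissue. In mammalian genes, promoters rich in CpGs are mostly free of methylation, whereas promoters poor in CpGs and gene bodies are mostly methylated.

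Of the mean values of these genes, few differed strongly between the cell types, while single positions that differed were spread over many genes. At least 5 positions were covered in 14 promoters and 40 bodies, together in 41 genes. The promoters of Col1a2, Col12a1 and Col11a2 and the body of Tnxb were lower in βerko MEFs by at least 20 percentage points, and none was higher by as much. The call at Col12a1 did not hold with promoters of 500 bp either side of the start. With that window Col7a1 was called instead, at -20.8 percentage points over 8 positions. Of the promoters of 2000 bp, 3 of 14 were thus lower, where 4.94 % of 7109 promoters of all protein-coding genes were lower and 0.478 % higher. Of the bodies, 1 of 40 was lower, where 3.13 % of 14621 bodies of all genes were lower and 0.643 % higher. The median difference, βerko minus wt, was -0.87 percentage points over the 14 promoters and -0.85 over the 40 bodies. Over all genes measured it was -0.18 for promoters and -0.36 for bodies. Differences below 5 percentage points were found in 57.1 % of the 14 promoters, against 78.1 % of those of all genes, and in 72.5 % of the 40 bodies, against 73.7 %.

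**Figure D1:**
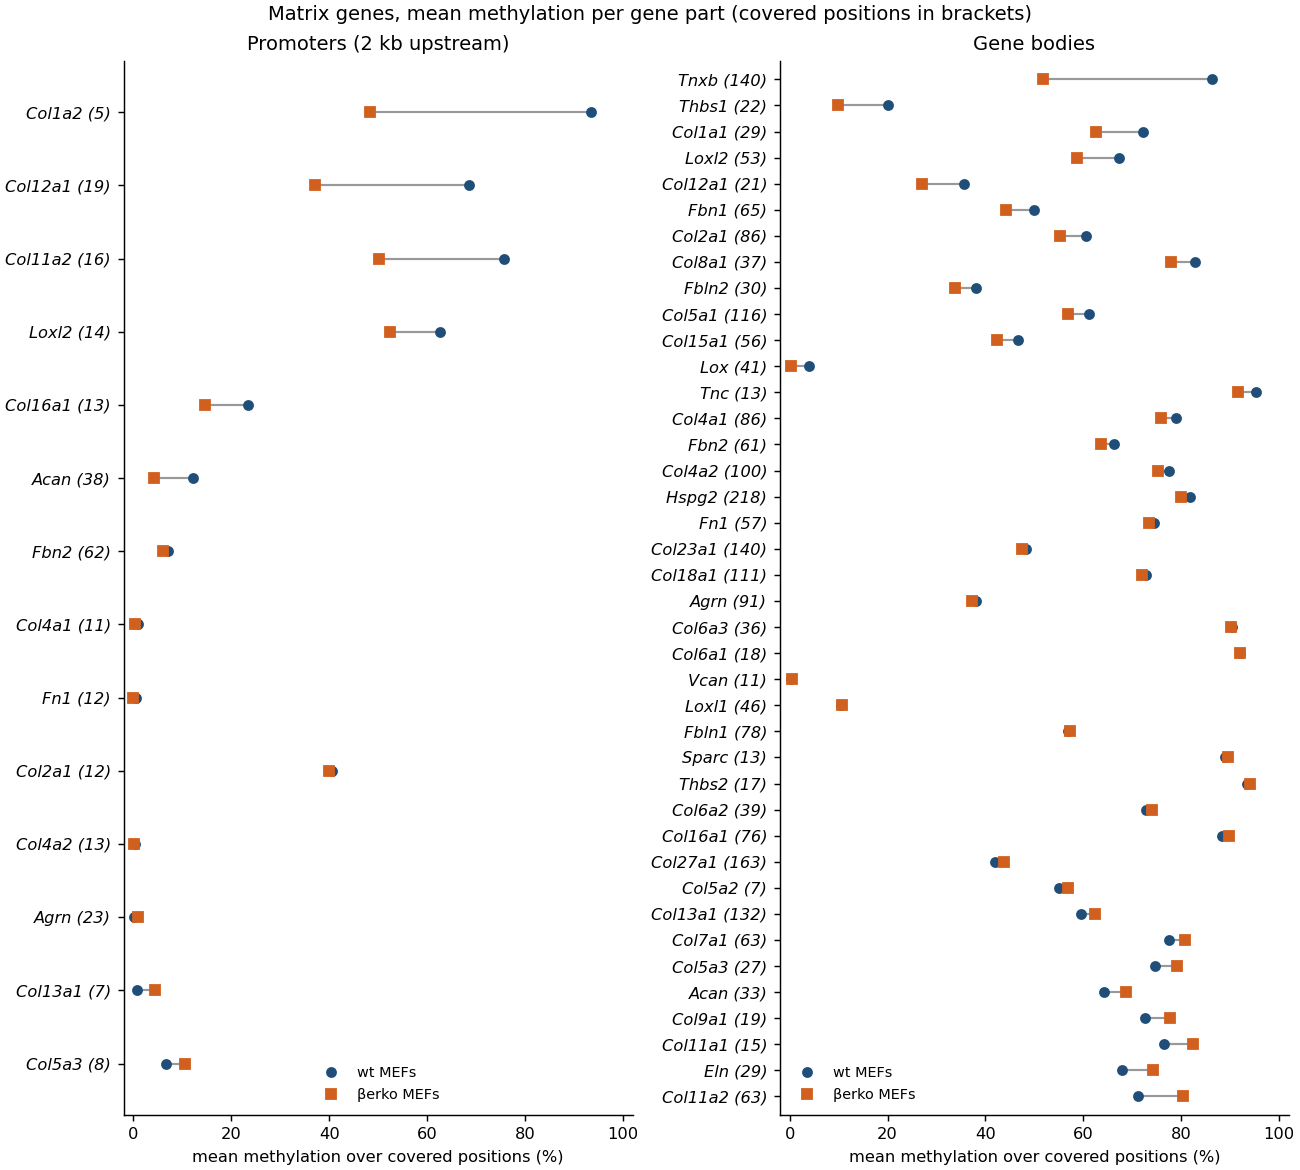
Mean methylation (%, horizontal axis) of each matrix gene in wt (blue circles) and βerko MEFs (orange squares), for the 14 promoters on the left and the 40 gene bodies on the right, with the number of covered positions in brackets. Long grey lines at the top mark Col1a2, Col12a1 and Col11a2 promoters and the Tnxb body, while most pairs of symbols overlap. The means are over positions of 1 library each and carry no replicate error.

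The 14 promoters differed by their level in wt MEFs. Below 10 % in wt were 7 promoters, those of Fn1, Col4a1, Col4a2, Agrn, Fbn2, Col5a3 and Col13a1, and their differences ranged from -1.04 to 3.73 percentage points. At 50 % or more in wt were 4 promoters, of which Col1a2, Col12a1 and Col11a2 were lower by at least 20 percentage points and Loxl2 went from 62.7 to 52.5 %. Of 723 promoters of all genes at this level in wt, 29.0 % were lower by as much, so that 3 of 4 has to be read against that share and not against all promoters. The limit of 50 % was set after the values were seen. Between these groups, the promoter of Col2a1 had 40.5 and 39.998 %, that of Col16a1 23.4 and 14.6 %, and that of Acan 12.2 and 4.26 %. The ratio of observed to expected CpGs within 500 bp of the start had a median of 0.775 in the 7 promoters below 10 % and 0.490 in the 4 promoters at 50 % or more. The ranges overlapped, from 0.417 to 0.872 in the former and from 0.211 to 0.754 in the latter. In the 25 promoters without a covered position the median was 0.392.

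**Figure D2:**
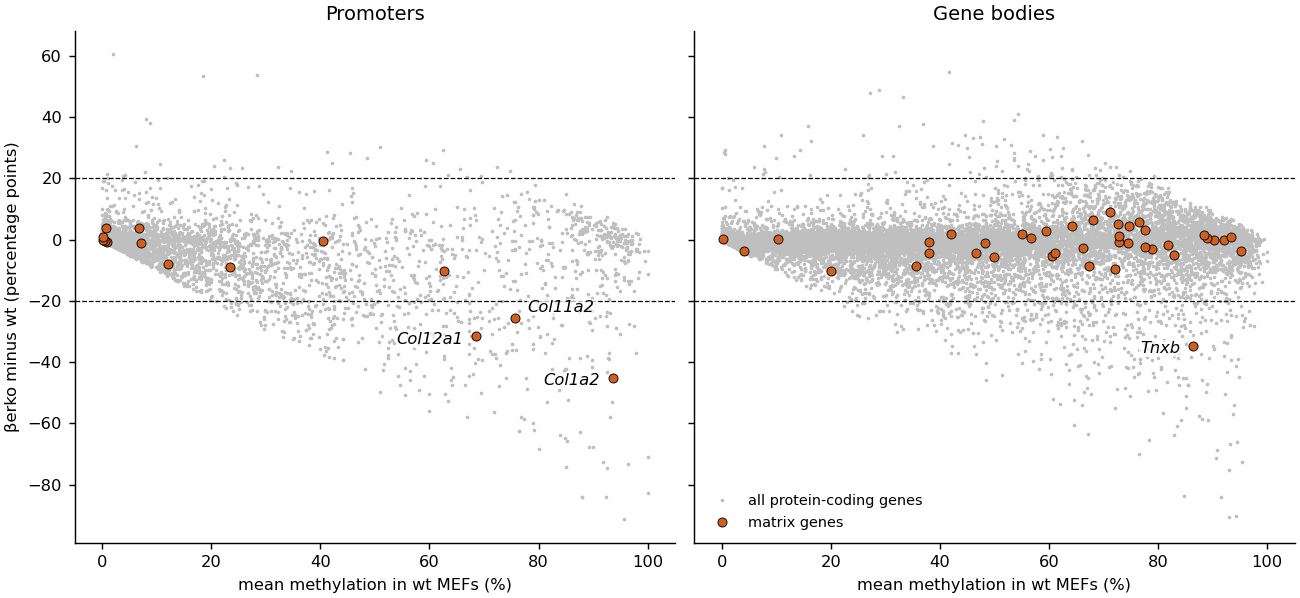
Difference in mean methylation (βerko minus wt, percentage points) against the mean in wt MEFs (%), for all protein-coding genes with at least 5 positions (grey) and the matrix genes (orange), in promoters and gene bodies. Dashed lines mark 20 percentage points, below which lie 3 matrix promoters and 1 matrix gene body, with none above the upper line.

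Among the 10 fibrillar collagens, the genes for both chains of type I collagen, the main fibre of skin, tendon and bone, were lower in βerko MEFs at the positions covered upstream. Col1a2, which encodes the second chain, had 5 positions between 453 and 277 bp upstream of its start. In wt MEFs they were methylated at 96.2, 88.5, 100, 100 and 83.3 %, and in βerko MEFs at 30.8, 44.2, 47.6, 76.2 and 42.9 %, in the order of the sequence. All 5 were lower in βerko MEFs, and the ranges did not overlap. They averaged 93.6 % ± 7.42 in wt against 48.3 % ± 16.8 in βerko MEFs (SD over 5 positions), the largest difference among the 14 promoters. None of them met the criteria for a DMP, because none was below 20 % in βerko MEFs. The sequence is shown because it carries the promoter difference of Col1a2. It spans chr6:4454355-4454543 (NCBIM37, plus strand), and capitals mark the covered CpGs.
Col1a2: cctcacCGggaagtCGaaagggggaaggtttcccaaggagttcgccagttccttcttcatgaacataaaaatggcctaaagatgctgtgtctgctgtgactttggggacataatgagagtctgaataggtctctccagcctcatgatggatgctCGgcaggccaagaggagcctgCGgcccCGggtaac

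Only 6 CpGs lie in these 189 bases, and 5 of them were covered. The body of Col1a2 had 1 covered position, in a coding exon, at 95 and 71.9 %.

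Col1a1, which encodes the first chain of type I collagen, had 2 promoter positions, too few for a mean by the rule used here. They lay 1373 and 1235 bp upstream and were methylated at 50 and 95.5 % in wt and at 11.1 and 35 % in βerko MEFs. In the body, 29 positions averaged 72.1 % in wt and 62.6 % in βerko MEFs. The 4 positions between 167 and 1227 bp downstream of the start were at 0 in both. Further in, the position at 94802559 on chromosome 11, in a coding exon, was methylated in 98.2 % of 54 reads in wt (90.1 to 99.95 %, with exact binomial 95 % confidence intervals in brackets here and for all DMPs) and 15.2 % of 46 reads in βerko MEFs (6.34 to 28.9 %). The position at 94802778, in the intron behind the next exon, was methylated in 94.1 % of 68 reads in wt (85.6 to 98.4 %) and 1.35 % of 74 reads in βerko MEFs (0.0342 to 7.30 %). Both were hypomethylated DMPs, with adjusted p-values of 1.26e-16 and 1.30e-30 in Fisher's exact test on the reads of these libraries. Since PCR copies were not told apart by molecular identifiers, reads may stem from the same molecule, and the intervals and tests cover counting error only. Between these DMPs lay 4 covered positions with differences from -32.0 to 22.6 percentage points, and 1 of them was higher in βerko MEFs. The sequence from one DMP to the other, chr11:94802553-94802784 (NCBIM37, plus strand), is printed to show how the covered CpGs, in capitals, are spaced, with the first and the last being the DMPs.
Col1a1: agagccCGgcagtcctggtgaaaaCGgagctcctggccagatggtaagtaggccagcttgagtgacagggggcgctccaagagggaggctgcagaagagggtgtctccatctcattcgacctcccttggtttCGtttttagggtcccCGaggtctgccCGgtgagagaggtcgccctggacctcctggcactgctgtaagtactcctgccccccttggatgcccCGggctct

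In Col11a2, which encodes a chain of the cartilage collagen XI, the means of promoter and whole body differed in opposite directions. The 16 promoter positions, between 933 and 699 bp upstream, averaged 75.7 % ± 24.3 in wt MEFs and 50.1 % ± 27.4 in βerko MEFs (SD over positions). They formed a single stretch that began 111 bp behind the end of the neighbouring gene Rxrb, and 8 of them were lower and 1 higher by at least 20 percentage points. The CpG 784 bp upstream held the hypomethylated DMP of this gene, at 85.0 % of 20 reads in wt (62.1 to 96.8 %) and 16.9 % of 59 reads in βerko MEFs (8.44 to 29.0 %; adjusted p = 1.19e-05, Fisher's exact test). The opposite strand of the same CpG read 79.2 and 13.5 %. In the body, 63 positions averaged 71.2 % in wt against 80.3 % in βerko MEFs, the largest gain among the 40 bodies, with 23 positions higher and 12 lower by at least 20 percentage points. Near the start, however, the body went the same way as the promoter. Its 5 positions within 500 bp of the start averaged 77.4 % in wt and 49.3 % in βerko MEFs. Col11a2 also had 3 hypermethylated DMPs in its body. Those 2804 and 2821 bp from the start were each at 15.4 % of 26 reads in wt (4.36 to 34.9 %), and at 84.0 % (63.9 to 95.5 %) and 92.0 % (74.0 to 99.0 %) of 25 reads in βerko MEFs. The third, 24810 bp from the start, was at 18.8 % of 32 reads in wt (7.21 to 36.4 %) and 88.9 % of 54 reads in βerko MEFs (77.4 to 95.8 %). The upstream sequence spans chr17:34175443-34175689 (NCBIM37, plus strand), with covered CpGs in capitals.
Col11a2: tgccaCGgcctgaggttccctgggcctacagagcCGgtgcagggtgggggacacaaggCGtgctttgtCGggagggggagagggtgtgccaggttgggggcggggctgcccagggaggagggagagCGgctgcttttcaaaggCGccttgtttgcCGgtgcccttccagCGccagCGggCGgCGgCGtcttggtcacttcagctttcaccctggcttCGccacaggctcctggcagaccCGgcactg

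The largest gain of any stretch in these genes was in Col27a1, which encodes another fibrillar collagen of cartilage. A stretch is here a run of at least 5 covered positions with gaps of at most 100 bp. Its 8 positions in an intron, between 7736 and 7852 bp from the start, averaged 21.5 % ± 8.01 in wt MEFs against 86.5 % ± 7.47 in βerko MEFs (SD over positions). In wt MEFs they ranged from 8.57 to 34.2 %, and in βerko MEFs from 76.5 to 98.4 %, so that all 8 were higher and the ranges did not overlap. Hypermethylated DMPs were 2 of them. The position at 62882785 on chromosome 4 was at 16.0 % of 106 reads in wt (9.63 to 24.4 %) and 85.7 % of 63 reads in βerko MEFs (74.6 to 93.3 %; adjusted p = 5.75e-17, Fisher's exact test). The position at 62882832 was at 15.2 % of 46 reads in wt (6.34 to 28.9 %) and 92.9 % of 28 reads in βerko MEFs (76.5 to 99.1 %; adjusted p = 4.22e-09, Fisher's exact test). The other 155 positions of the Col27a1 body averaged 43.1 % in wt and 41.6 % in βerko MEFs, and its whole body 42.0 and 43.8 %. The sequence of the stretch, chr4:62882768-62882896 (NCBIM37, plus strand), is shown as the only called gain, with covered CpGs in capitals.
Col27a1: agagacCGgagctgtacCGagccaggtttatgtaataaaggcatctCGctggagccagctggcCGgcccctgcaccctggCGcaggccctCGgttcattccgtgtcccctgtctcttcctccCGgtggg

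The remaining fibrillar collagens with at least 5 body positions differed by less than 6 percentage points in their body means. Col2a1, the main cartilage collagen, averaged 60.5 % in wt and 55.1 % in βerko MEFs over 86 body positions, and Col5a1, which helps to set the width of type I fibrils, 61.1 and 56.8 % over 116 positions. Within 1000 bp of its start, however, Col2a1 had 23 positions with means of 31.3 and 16.3 %, of which 8 were lower and 1 higher by at least 20 percentage points. With gaps of at most 50 bp in place of 100 bp, a stretch of 7 positions in Col2a1 was lower by at least 20 percentage points, at 49.9 and 10.1 %. Col5a2 had 55.0 and 56.9 % over 7 positions, and Col11a1 76.5 and 82.4 % over 15 positions. Col5a3 had 74.7 and 79.1 % over 27 positions, with 1 hypermethylated DMP in its body at 18.2 % of 33 reads in wt (6.98 to 35.5 %) and 82.7 % of 52 reads in βerko MEFs (69.7 to 91.8 %). The 3 positions of Col3a1, the collagen that accompanies type I in soft tissues, read 12.8, 50 and 100 % in wt and 18.2, 100 and 100 % in βerko MEFs.

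Collagen VI, which forms beaded filaments around cells, was alike in both cell types. Over the 93 covered positions of Col6a1, Col6a2 and Col6a3 the mean was 83.3 % in wt and 83.8 % in βerko MEFs, and 0 positions differed by at least 20 percentage points in either direction. Among all positions of the dataset, 10.4 % were lower and 6.81 % higher by as much, and among all 2708 positions of the matrix genes 13.4 and 7.31 %. None of the 3 genes had a covered promoter position. Depth at these positions is unknown.

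Of the other 7 collagens, Col12a1, whose product binds to the surface of type I fibrils, had a promoter whose methylation differed along its length. Its 19 promoter positions averaged 68.6 % ± 40.04 in wt and 37.0 % ± 34.6 in βerko MEFs (SD over positions), of which 10 were lower by at least 20 percentage points and none higher. The difference of -31.6 percentage points turned on the window and the average, being -16.7 and so under the limit with promoters of 500 bp either side of the start, and -49.8 between medians. The 5 positions nearest to the start, within 93 bp, were at 0 to 14.3 % in wt and at 0 in βerko MEFs. At 251 bp upstream, a position was at 58.3 % in wt MEFs against 0 % in βerko MEFs. At 398 bp upstream lay a hypomethylated DMP, at 96.7 % of 30 reads in wt (82.8 to 99.9 %) and 14.0 % of 50 reads in βerko MEFs (5.82 to 26.7 %; adjusted p = 1.31e-11, Fisher's exact test). Further upstream, between 899 and 749 bp, 10 positions averaged 95.6 % ± 5.61 in wt and 62.9 % ± 22.2 in βerko MEFs. In this stretch the values in βerko MEFs ranged from 40 to 100 %, and 2 positions were equal or higher in βerko MEFs. The sequence of the far stretch is chr9:79567381-79567543 (NCBIM37, minus strand, read in the direction of the gene), with covered CpGs in capitals.
Col12a1: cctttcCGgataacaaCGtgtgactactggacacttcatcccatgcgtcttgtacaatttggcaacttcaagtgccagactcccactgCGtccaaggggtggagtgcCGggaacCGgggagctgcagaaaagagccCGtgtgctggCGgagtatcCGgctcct

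Col23a1, which encodes a transmembrane collagen, had 140 body positions that averaged 48.3 % in wt and 47.4 % in βerko MEFs, with 18 lower and 21 higher by at least 20 percentage points. An intron near the start nevertheless held a complete difference. The CpG 626 bp from the start was methylated in 100 % of 41 reads in wt (91.4 to 100 %) and 0 % of 38 reads in βerko MEFs (0 to 9.25 %), and on the opposite strand in 100 % of 20 reads (83.2 to 100 %) and 3.45 % of 29 reads (0.0873 to 17.8 %). The position 878 bp from the start, again a hypomethylated DMP, was at 100 % of 28 reads in wt (87.7 to 100 %) and 12.9 % of 62 reads in βerko MEFs (5.74 to 23.9 %). The largest adjusted p-value of these 3 DMPs was 2.02e-10 in Fisher's exact test. From 807 to 878 bp, 5 positions averaged 84.9 % ± 9.03 in wt and 35.0 % ± 13.9 in βerko MEFs. They lay on 4 CpGs, so with strands merged this stretch had too few positions to be called. Over the 65 positions within 1000 bp of the start the means were 19.96 and 5.86 %. The sequence covers the 3 DMPs, chr11:51104042-51104306 (NCBIM37, plus strand), with covered CpGs in capitals.
Col23a1: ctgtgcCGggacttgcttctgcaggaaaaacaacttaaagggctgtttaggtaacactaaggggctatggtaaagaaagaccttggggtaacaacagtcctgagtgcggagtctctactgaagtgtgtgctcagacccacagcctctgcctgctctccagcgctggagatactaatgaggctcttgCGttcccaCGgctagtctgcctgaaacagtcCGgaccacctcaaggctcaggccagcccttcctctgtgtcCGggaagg

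In Col13a1, another transmembrane collagen, 132 body positions averaged 59.5 % in wt and 62.5 % in βerko MEFs. It had a DMP in each direction, the hypomethylated one at 91.7 % of 12 reads in wt (61.5 to 99.8 %) and 14.8 % of 27 reads in βerko MEFs (4.19 to 33.7 %). The hypermethylated one was at 8.33 % of 24 reads in wt (1.03 to 27.0 %) and 85.2 % of 27 reads in βerko MEFs (66.3 to 95.8 %). Col7a1, the anchoring fibril collagen of skin, averaged 77.5 and 80.8 % over 63 body positions. Within 1000 bp of its start, 8 of them averaged 80.4 % in wt and 59.6 % in βerko MEFs. Of these Col7a1 positions, 3 were lower and 0 higher by at least 20 percentage points. Its hypermethylated DMP in the body was at 9.40 % of 117 reads in wt (4.79 to 16.2 %) and 86.7 % of 90 reads in βerko MEFs (77.9 to 92.9 %; adjusted p = 9.40e-28, Fisher's exact test), and another with 5 reads in wt did not pass the test (adjusted p = 0.233, Fisher's exact test). The bodies of Col8a1, Col9a1 and Col16a1 averaged 82.9, 72.6 and 88.4 % in wt and 78.0, 77.7 and 89.9 % in βerko MEFs. Within 1000 bp of its start, however, Col8a1 had 4 positions with means of 53.7 % in wt and 6.82 % in βerko MEFs, all 4 lower by at least 20 percentage points.

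**Figure D3:**
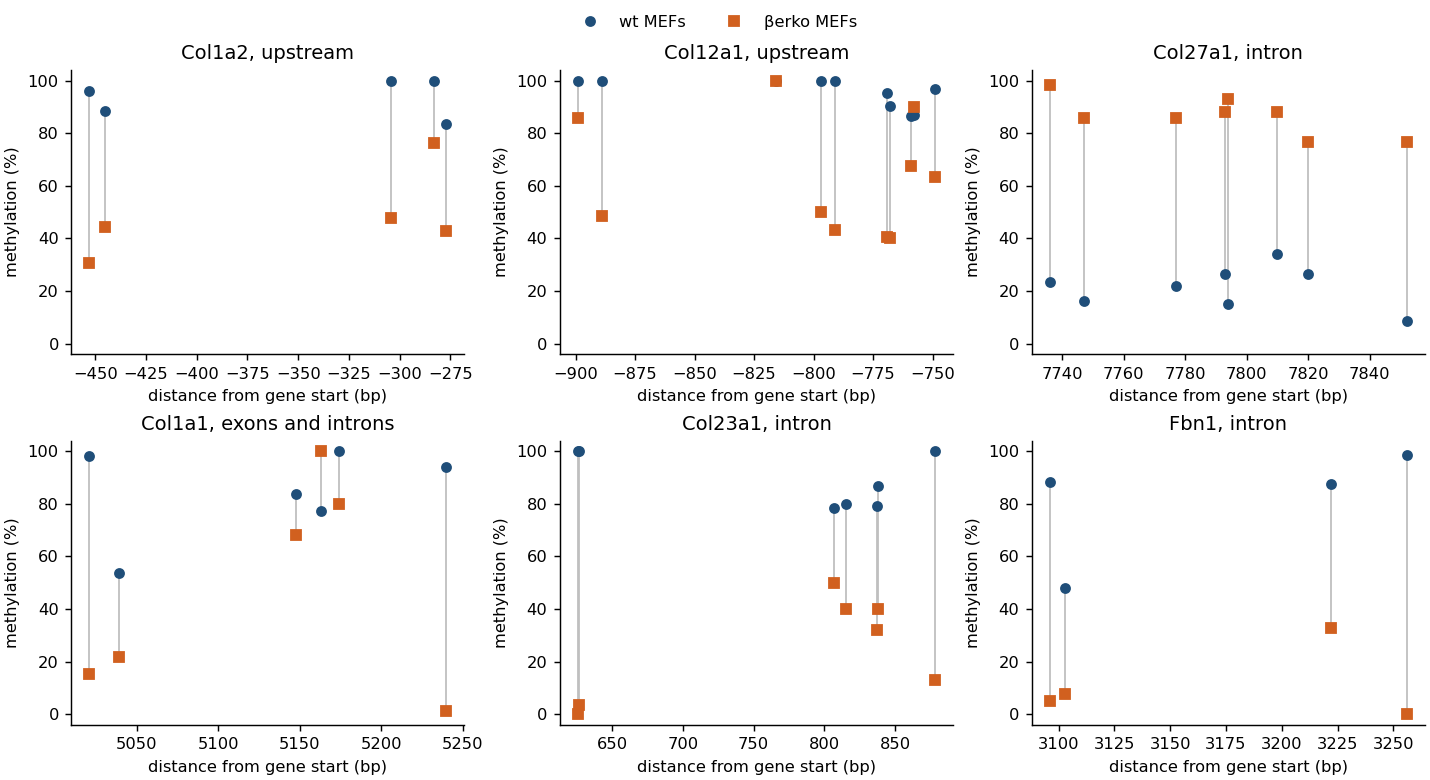
Methylation (%) of single positions in wt (blue circles) and βerko MEFs (orange squares) against the distance from the gene start (bp) at 6 sites, with grey lines joining both values of a position. At Col27a1 all 8 positions are higher in βerko MEFs, and at Col1a2, Col23a1 and Fbn1 every position is lower. At Col12a1 and Col1a1 most positions are lower, and the others are equal or higher.

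Of the 6 basement membrane genes, 3 promoters had enough positions, and all 6 bodies differed by less than 5 percentage points. Col4a1 and Col4a2, whose products form the network of basement membranes, lie head to head, so that the promoter of each reaches into the body of the other. Their promoters were at 1.01 and 0.275 % in wt and at 0.314 and 0.0892 % in βerko MEFs, and their bodies at 78.9 and 77.5 % in wt and at 75.9 and 75.2 % in βerko MEFs. The promoter of Agrn, the proteoglycan agrin, was at 0.136 and 0.855 % over 23 positions and its body at 38.0 and 37.2 % over 91. The 3 promoter positions of Col15a1, too few by the rule, averaged 20.8 and 15.6 %, and no promoter position was covered at Col18a1 and Hspg2. The bodies of Col15a1 and Col18a1 went from 46.6 to 42.4 % and from 72.8 to 71.9 %. Hspg2, the gene for perlecan, had the most positions of all, and its 218 body positions averaged 81.8 and 80.01 %. It nevertheless had a DMP in each direction. The hypomethylated one, 36664 bp from the start, was at 100 % of 24 reads in wt (85.8 to 100 %) and 19.4 % of 67 reads in βerko MEFs (10.8 to 30.9 %). The hypermethylated one, 2799 bp from the start, was at 0 % of 6 reads in wt (0 to 45.9 %) and 100 % of 32 reads in βerko MEFs (89.1 to 100 %), and its wt value rests on few reads. Col15a1 and Hspg2 each had 1 further position in the deposited DMP tables with exactly 4 reads in a library, which was not counted.

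Of the 5 elastic fibre genes, Fbn1, which encodes the microfibril protein fibrillin-1, had 65 body positions with means of 49.9 % in wt and 44.2 % in βerko MEFs. Most of its difference lay in an intron, where 4 positions 3096 to 3256 bp from the start averaged 80.7 % in wt and 11.4 % in βerko MEFs. The DMP at 125330473 on chromosome 2 was methylated in 98.6 % of 74 reads in wt (92.7 to 99.97 %) and 0 % of 58 reads in βerko MEFs (0 to 6.16 %; adjusted p = 3.26e-33, Fisher's exact test). The DMP at 125330633 was at 88.5 % of 26 reads in wt (69.8 to 97.6 %) and 5.13 % of 39 reads in βerko MEFs (0.627 to 17.3 %; adjusted p = 7.60e-10, Fisher's exact test). Eln, the gene for elastin, went from 68.0 to 74.3 % over 29 body positions, Fbn2 from 66.2 to 63.5 % over 61, Fbln1 from 56.8 to 57.4 % over 78 and Fbln2 from 38.1 to 33.7 % over 30. The Fbn1 sequence, chr2:125330467-125330639 (NCBIM37, minus strand, read in the direction of the gene), is shown with covered CpGs in capitals, the first and the last being the DMPs.
Fbn1: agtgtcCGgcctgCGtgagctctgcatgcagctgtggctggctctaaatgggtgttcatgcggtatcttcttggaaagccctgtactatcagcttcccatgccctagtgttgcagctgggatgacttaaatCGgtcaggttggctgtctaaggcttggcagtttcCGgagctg

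Lysyl oxidases cross-link collagen and elastin. Loxl2 had a difference spread over many positions around its start, as had Col2a1 (above) and Col23a1, whose 65 positions within 1000 bp averaged 19.96 and 5.86 %, with 14 lower and 0 higher. Within 1000 bp of the start, its 40 positions averaged 55.4 % in wt and 40.6 % in βerko MEFs, with 17 lower and 0 higher by at least 20 percentage points. Over the whole body of 53 positions the means were 67.3 and 58.7 %. None of these positions was a DMP. Lox was nearly free of methylation, at 4.04 and 0.193 % over 41 body positions, and Loxl1 at 10.4 and 10.7 % over 46.

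Tnxb, which encodes the glycoprotein tenascin-X of collagen-rich tissue, had the largest difference of all the bodies. Over 140 positions the mean was 86.4 % ± 15.6 in wt MEFs and 51.7 % ± 35.5 in βerko MEFs (SD over positions), and 85 positions were lower and 8 higher by at least 20 percentage points. Nearly all of this lay in 1 stretch of 736 bp, chr17:34808403-34809138 (NCBIM37), 923 to 1658 bp from the start and inside a coding exon of 1833 bp. Its 85 positions, on 70 CpGs, averaged 88.6 % ± 11.7 in wt and 30.7 % ± 22.3 in βerko MEFs. In wt they ranged from 58.3 to 100 %, and in βerko MEFs from 0 to 100 %, with 80 positions lower by at least 20 percentage points, 0 higher by as much, and 67 below 50 % in βerko MEFs. The stretch is rich in CpGs, with 82 in all and a ratio of observed to expected CpGs of 0.937. A second, small stretch of 5 positions in another coding exon, 15252 to 15321 bp from the start, averaged 72.4 % ± 9.62 and 27.2 % ± 15.8. The other 50 positions of the gene averaged 83.9 % in wt and 89.7 % in βerko MEFs. The stretch of 11 positions that followed in the same exon, from 1989 bp on, was at 85.4 % in wt and 95.01 % in βerko MEFs, so the lower methylation ended within 331 bp. The part of the stretch with the largest summed difference, chr17:34808636-34808895 (NCBIM37, plus strand), is printed because it shows how dense the covered CpGs are, all 31 of which are in capitals.
Tnxb: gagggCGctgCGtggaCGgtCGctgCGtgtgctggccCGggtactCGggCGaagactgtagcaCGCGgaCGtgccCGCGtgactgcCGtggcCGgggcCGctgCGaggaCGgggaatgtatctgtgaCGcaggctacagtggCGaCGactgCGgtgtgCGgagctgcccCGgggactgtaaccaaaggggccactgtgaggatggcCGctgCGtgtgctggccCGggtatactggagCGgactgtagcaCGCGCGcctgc

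The 38 positions measured in this sequence averaged 88.9 % in wt and 26.0 % in βerko MEFs. Tnxb held 23 hypomethylated DMPs, of which 22 passed Fisher's exact test after adjustment, and all 22 lay in the stretch of 736 bp. Over the 23 DMPs the reads ranged from 9 to 51 in wt and from 11 to 81 in βerko MEFs. The DMPs at 34808467 and 34808488 had the most reads in wt, 51 each. The former was at 90.2 % in wt (78.6 to 96.7 %) and 19.2 % of 78 reads in βerko MEFs (11.2 to 29.7 %; adjusted p = 1.18e-13, Fisher's exact test), the latter at 98.0 % (89.6 to 99.95 %) and 17.9 % of 78 reads (10.2 to 28.3 %; adjusted p = 8.92e-19, Fisher's exact test). The DMP at 34809122 was at 100 % of 29 reads in wt (88.1 to 100 %) and 8.64 % of 81 reads in βerko MEFs (3.55 to 17 %; adjusted p = 1.81e-17, Fisher's exact test). The DMP of the small second stretch, with 11 reads in βerko MEFs, did not pass (adjusted p = 0.0834, Fisher's exact test). No promoter position of Tnxb was covered.

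**Figure D4:**
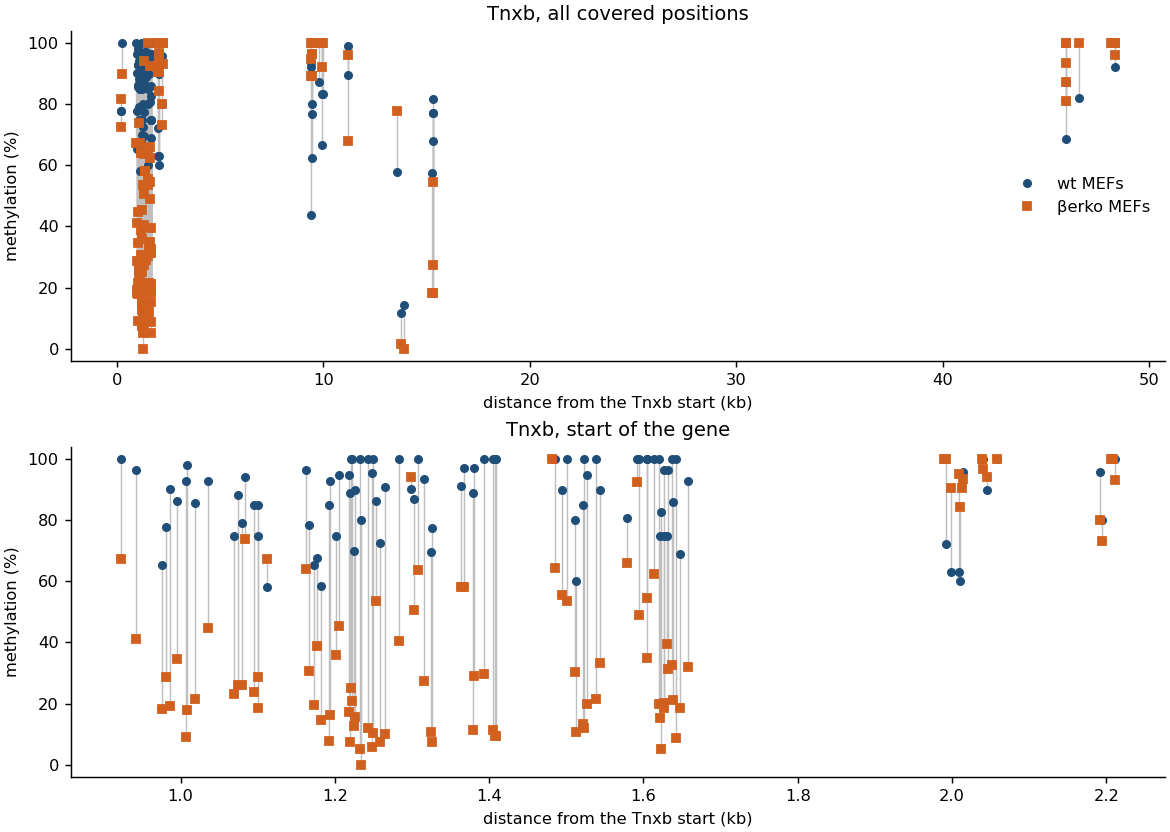
Methylation (%) of the 140 covered positions of Tnxb in wt (blue circles) and βerko MEFs (orange squares) against the distance from the gene start (kb), with all positions above and the start of the gene below. From 923 to 1658 bp nearly every βerko value is below its wt value, and beyond it both are high up to the end of the lower panel.

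The other adhesive glycoproteins differed less. Fn1, the gene for fibronectin, had a promoter at 0.6 % in wt and 0 % in βerko MEFs over 12 positions, and a body at 74.5 and 73.4 % over 57 positions. Sparc, a collagen-binding glycoprotein, had 13 body positions at 88.9 and 89.6 %. Neighbouring positions in an intron of Sparc, 22156 and 22150 bp from the start and on the same strand, differed in opposite directions, from 98.0 to 60.5 % and from 18 to 79.1 %. The body of Thbs1, the gene for thrombospondin-1, was at 20.1 and 9.96 %, the second largest body loss after Tnxb, while Thbs2 was at 93.4 and 94.2 % and Tnc, tenascin-C, at 95.3 and 91.6 %. Among the proteoglycans, the body of Vcan (versican) was at 0.305 and 0.484 % and that of Acan, the cartilage proteoglycan aggrecan, at 64.2 and 68.7 %. Acan had 1 hypomethylated DMP in its body, at 97.5 % of 40 reads in wt (86.8 to 99.9 %) and 16.2 % of 37 reads in βerko MEFs (6.19 to 32.0 %; adjusted p = 1.18e-11, Fisher's exact test).

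Counted together, the matrix genes held 136 stretches, of which 5 were lower and 1 was higher by at least 20 percentage points. These 6 stretches held 103 of the 363 matrix positions that were lower by as much and 9 of the 198 that were higher, so that most lay elsewhere. That compares with 7.74 % of 39421 stretches of the whole dataset that were lower and 1.99 % that were higher. Next below the limit came a stretch of 8 positions in a coding exon of Col7a1, at 71.7 and 52.1 %, and one of 6 positions in an intron of Loxl2, at 66.9 and 48.1 %. Of the gains, the next after Col27a1 were stretches of Col11a2 at 75.4 and 92.7 % and of Col7a1 at 74.6 and 91.2 %. The median difference was -0.15 percentage points over the 136 stretches and -0.20 over all.

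By the criteria of the authors, a DMP needed over 4 reads in each library, with methylation under 20 % in either of them and over 80 % in its counterpart. In the matrix genes 35 DMPs were hypomethylated and 10 hypermethylated in βerko MEFs, and 34 and 9 of them passed Fisher's exact test after the Benjamini-Hochberg adjustment over all 826937 positions of the dataset. Because DMPs were selected by level on the same reads, passing the test follows largely from that selection and from the read numbers. The largest adjusted p-values among those that passed were 0.00157 and 0.000137 in Fisher's exact test. These DMPs lay in 12 genes, of which Col11a2, Col13a1 and Hspg2 had both kinds. The 34 made up 1.26 % of the positions in these genes, against 0.642 % in the dataset, but without Tnxb 12 remained, or 0.467 % of 2568 positions. The 9 hypermethylated DMPs made up 0.332 %, against 0.212 % in the dataset. Of the 34, 23 were in coding exons, 9 in introns and 2 upstream, but 22 of those in coding exons were in Tnxb, so that outside it 1 was in a coding exon. The matrix positions outside Tnxb included 894 in coding exons, 1089 in introns and 270 upstream. Of the 9 hypermethylated DMPs, 4 were in coding exons and 5 in introns. Counted over positions instead of DMPs, 10.8 % of the positions outside Tnxb were lower and 7.40 % higher by at least 20 percentage points, close to the 10.4 and 6.81 % of the dataset.

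**Figure D5:**
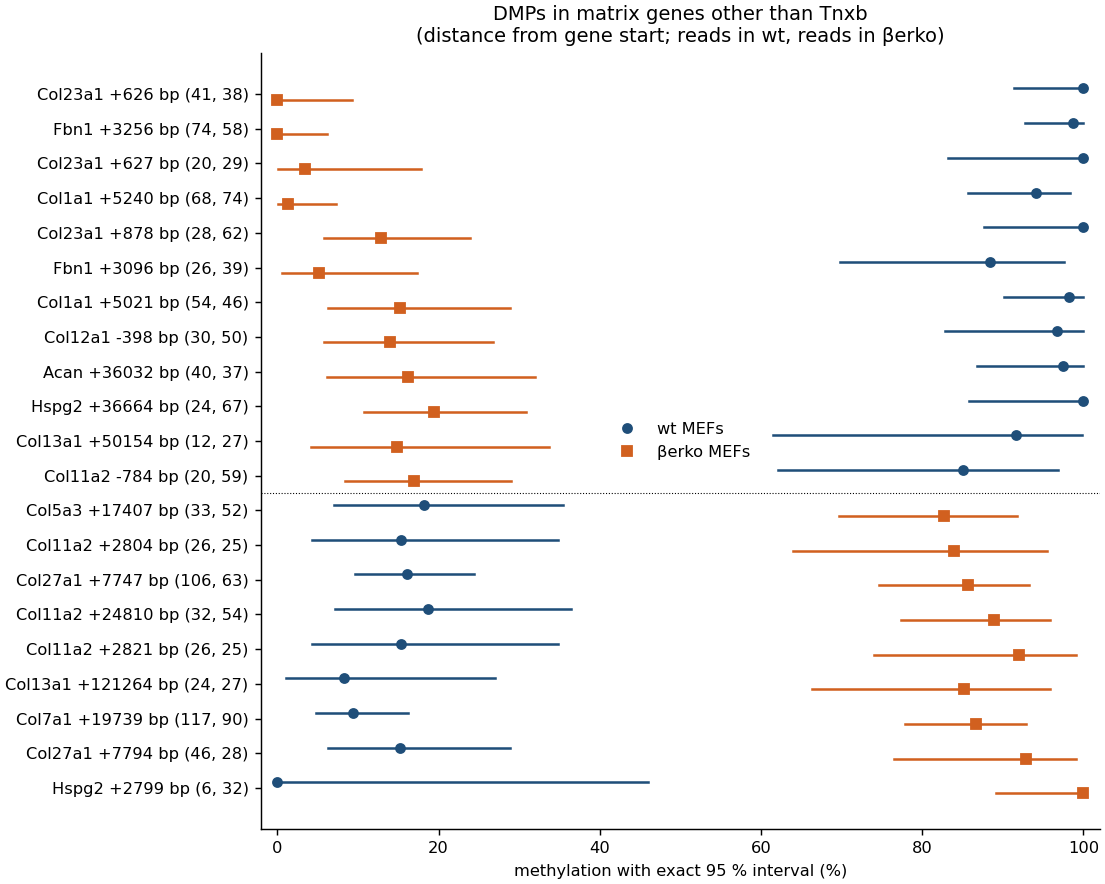
Methylation (%) with its exact 95 % confidence interval at the 21 DMPs outside Tnxb that passed the test, in wt (blue circles) and βerko MEFs (orange squares), each named by gene, distance from the start (bp) and the reads in wt and βerko MEFs. The 12 hypomethylated DMPs are above the dotted line and the 9 hypermethylated ones below it. In none do the intervals of both libraries overlap, which follows largely from the selection by level and by the test on the same reads. The widest interval is that of Hspg2 with 6 reads in wt.

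Where both strands of a CpG were covered, they offer a check within each library. At the 229 such CpGs of the matrix genes, the differences on both strands disagreed by a median of 4.10 percentage points, and by 18.4 at the 90th percentile. Of 64 CpGs with a difference of at least 20 percentage points on a strand, 43 had one in the same direction on both. Outside Tnxb it was 27 of 47.

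By distance, the means of the matrix genes were lower in βerko MEFs around the starts and differed by less than 1 percentage point deep in the bodies. From 1000 bp upstream to the start, 258 positions averaged 21.3 % in wt and 14.4 % in βerko MEFs, and in the first 1000 bp downstream 569 positions outside Tnxb averaged 12.9 and 7.50 %. At 20000 bp or more from the start, 1199 positions outside Tnxb averaged 87.4 and 88.0 %. Over all protein-coding genes the corresponding differences were -2.31, -2.61 and -0.78 percentage points, and those of the matrix genes -6.89, -5.40 and 0.65. In wt MEFs all genes started from lower means of 9.03 and 8.66 % in the bins upstream and downstream of the start. The upstream bin of the matrix genes included every covered promoter position of Col1a2, Col12a1 and Col11a2, which numbered 5, 19 and 16. Their mean differences were -45.3, -31.6 and -25.5 percentage points. Most of the summed difference of this bin thus came from these promoters, which were called above, and -6.89 does not describe the other promoters in it. The mean of the bin without these promoters was not computed. From 1000 bp to below 5000 bp the difference was -15.3 percentage points over 344 positions of the matrix genes and -5.32 over all genes. Without Tnxb, left out after the values were seen, the order was the opposite, with -2.96 over 249 positions. From 5000 bp to below 20000 bp the 305 positions outside Tnxb were higher in βerko MEFs by 2.51 percentage points on average, where those of all genes were lower by 2.18.

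Beyond the 45 genes, 129 other genes of the matrix, its synthesis, its degradation and its receptors were looked up from a list, of which 119 had a measured part. Of their 47 promoters, 7 were lower and 0 higher by at least 20 percentage points, which makes 14.9 % lower against 4.94 % of all promoters. These shares were not matched for the level in wt. Among the 7 were Pcolce2, Bcan, Adamts1, Col4a3 and Col4a4, at 40.7, 37.9, 34.2, 48.3 and 49.5 % in wt. The share of 29.0 % among promoters at 50 % or more in wt therefore does not apply to the 47 as a whole. Of their 118 bodies 8 were lower and 1 higher, or 6.78 and 0.847 % against 3.13 and 0.643 % of all bodies. The largest losses were those of the matrix metalloproteinase gene Mmp23, whose promoter was at 92.6 % in wt and 18.1 % in βerko MEFs and its body at 90.6 and 19.4 %. Next came the body of Pcolce, the gene for an enhancer of procollagen processing, at 72.0 and 17.1 %, the body of the integrin gene Itga4 at 60.7 and 8.69 %, and the promoter of the thrombospondin gene Thbs4 at 68.9 and 29.9 %. Smoc1, which encodes a calcium-binding matrix protein, was the only gain, with a body at 42.3 and 73.7 %. The promoters of Col4a3 and Col4a4, which form another collagen IV network, were at 48.3 and 49.5 % in wt and at 23.4 and 27.5 % in βerko MEFs.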

How the data were processed

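The authors sequenced 1 RRBS library of wt MEFs and 1 of βerko MEFs. CASAVA 1.4 and the build mm9 are named in the submitters' processing notes, and mapping was done on a Genomatix Mining Station whose version is not given in the sources used here. The authors deposited percent methylation, without depth, for cytosines seen in wt and βerko libraries alike, and tables of DMPs in which the values are read counts per library.

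Gene models were those of GENCODE vM1 on NCBIM37, where every position was a CpG cytosine. Unweighted means over positions were taken per gene part with at least 5 positions, and a difference of at least 20 percentage points was called. A test across all sites was planned but could not be run without depth. Fisher's exact test (two-sided) was applied to the reads of DMPs, adjusted by Benjamini-Hochberg over 826937 positions with untested ones at a p-value of 1 and a threshold of 0.05. Intervals are exact binomial at 95 %. These tests compare 2 libraries and not genotypes. At hypomethylated DMPs of the matrix genes that passed, depth was 9 to 74 reads in wt and 27 to 81 in βerko MEFs, and at hypermethylated ones 6 to 117 and 25 to 90.

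The genes and lists were chosen with earlier results of these data known. All 45 genes were accounted for, and named in full were those with a called part, the 10 stretches with the largest loss and gain where called, up to 10 DMPs per direction, and Col1a1, Col1a2, Col3a1, Fn1, Sparc and Dcn. Values within 1000 bp of the start, the limit of 50 % for promoters and the Loxl2 and Sparc positions were added after the values were seen. Sequences were read from NCBIM37. Procedures were tested on simulated data. Software was Python 3.11.15, pysam 0.24.0, SciPy 1.17.1, matplotlib 3.10.9, pandas 2.3.3 and NumPy 2.4.6. Alternatives were tried for part limits, position numbers, strands, thresholds, gaps and read numbers.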

Additional observations from a re-analysis of the deposited data

How the results depend on the processing

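The promoter losses of Col1a2, Col12a1 and Col11a2 and the body loss of Tnxb kept their direction in the alternatives in which they could be measured, and moved by less than 1 SD over positions, although Col12a1, at -16.7 percentage points, was under the limit with promoters of 500 bp either side of the start, and -49.8 between medians. Col7a1, at -20.8 percentage points, took the place of Col12a1 among the 3 called promoters with that window. With 1000 bp either side, 5 promoters instead of 3 were lower, by the addition of Tnxb and Col7a1. With medians over positions, 3 bodies instead of 1 were lower, by the addition of Fbn1 and Loxl2, and with a limit of 10 percentage points 2. Stretches depended most on their definition. With gaps of at most 50 bp, 8 were lower and 2 higher, with gaps of at most 200 bp 11 and 2, with at least 10 positions 3 and 0, against 5 and 1, and without Tnxb, chosen after seeing the data, 3 were lower. Of the 35 hypomethylated DMPs, 23 had 20 or more reads in both libraries, and 10, all of which passed the test, were beyond 10 and 90 %, as was 1 hypermethylated DMP. Counted once per run within 500 bp there were 10 hypomethylated DMPs, of which 9 passed, and without Tnxb 12, all passing. The other 65 recomputed counts stayed within 1.5 times. No paired analysis was possible because each group had 1 library. Depth outside DMPs is unknown, so single positions there may rest on few reads.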
